A study of Mus musculus with 12 samples.

Results

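The Slc25 family of mitochondrial solute carriers was followed in the livers of 12 female C57BL/6J mice. Its members were taken by name, as every row of the count table whose Ensembl mouse symbol is Slc25a followed by a number, and the rule found 47 of the 54838 genes in the table. All 47 were annotated as protein coding and they lay on 19 chromosomes. The mice fell into 4 groups of 3 that differed in drinking water and in injection. The water-PBS mice, which served as controls, drank plain water for 7 days and were injected with PBS, the zinc-PBS mice drank water with 25 mM ZnSO4 for 7 days and were injected with PBS, the water-Dex mice drank plain water and were injected with 200 µg dexamethasone (Dex), and the zinc-Dex mice received both. Dex is a synthetic agonist of the glucocorticoid receptor, and 2 h separated the injection from the sampling of the liver. The series title names the livers as wild type. The labels do not say whether mice of a group shared a cage, so the tests measure the spread among these mice.

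Slc25 proteins sit in the inner mitochondrial membrane and exchange or import the small molecules that mitochondria share with the cytosol, among them ADP and ATP, phosphate, amino acids, carboxylates, nucleotides and cofactors. In liver they link the mitochondrial and cytosolic steps of the urea cycle, gluconeogenesis, fatty acid oxidation and heme synthesis. *Slc25a25* encodes an ATP-Mg/phosphate carrier (also called SCaMC-2) that is regulated by calcium and changes the amount of adenine nucleotide inside the mitochondrion. It was set against the other 46 members.

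The sequences just before the annotated starts of *Slc25a25* are printed because this was the member that differed with zinc, and because its starts are widely spaced. RefSeq (GRCm38.p6) gave 3 starts for the gene, all on the minus strand of chromosome 2, and the 250 bases before each are shown 5′ to 3′ on that strand. Capitals mark a match to any of 4 motifs searched on both strands: the cyclic AMP response element TGACGTCA, the glucocorticoid response element as a full inverted repeat, and the metal response element cores TGCACNC and TGCGCNC, and no matches overlapped in these windows.
Window before the first start, chr2:32451471-32451720 (minus): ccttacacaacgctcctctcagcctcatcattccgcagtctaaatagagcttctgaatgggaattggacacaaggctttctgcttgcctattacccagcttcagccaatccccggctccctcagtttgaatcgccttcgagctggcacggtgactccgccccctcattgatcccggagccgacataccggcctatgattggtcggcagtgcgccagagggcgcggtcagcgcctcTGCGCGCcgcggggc
Window before the second start, chr2:32431152-32431401 (minus): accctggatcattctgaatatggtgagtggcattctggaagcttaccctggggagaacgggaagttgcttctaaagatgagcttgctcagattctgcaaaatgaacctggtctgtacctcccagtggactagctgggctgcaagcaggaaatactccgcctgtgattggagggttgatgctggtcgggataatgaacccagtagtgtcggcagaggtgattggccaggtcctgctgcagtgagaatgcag
Window before the last start, chr2:32424067-32424316 (minus): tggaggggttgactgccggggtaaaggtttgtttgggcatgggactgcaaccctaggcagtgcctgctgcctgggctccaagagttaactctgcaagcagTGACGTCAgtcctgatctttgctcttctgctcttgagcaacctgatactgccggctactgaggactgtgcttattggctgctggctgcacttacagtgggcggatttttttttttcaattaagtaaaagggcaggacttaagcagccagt
The window before the last start held TGACGTCA from base -150 to base -143, counted back from the start. Among 32851 windows of all genes, 1.55% held these letters, and among the 46 windows of the 36 members that matched the table, 2 did, those of *Slc25a25* and *Slc25a36*. The window before the first start held TGCGCNC from base -15 to base -9, which was also found in 12.5% of all windows and in 7 of the family's 46. TGCACNC was in 10.4% of all windows and in 3 of the family's, and the full glucocorticoid response element was in 0.00913% of all windows and in 0 of the family's. In the second window 18 bases overlapped an exon of a retained-intron transcript of the same gene. These are matches of letters and were not tested as sites.

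Most of the family was expressed in liver. Of the 47 members, 13 had a mean of at least 1000 normalized read counts over the 12 libraries, 27 lay between 10 and 1000, and 7 lay under 10. Normalized read counts are counts divided by the DESeq2 size factor of each library. Set per kilobase of exon, the scale on which genes can be compared, the mean level was highest for *Slc25a5*, an ADP/ATP carrier, at 2301 normalized counts per kb. It was followed by *Slc25a47*, a carrier found mainly in liver, at 2004, *Slc25a15*, which exchanges ornithine and citrulline for the urea cycle, at 1637, *Slc25a39*, which imports glutathione, at 1319, *Slc25a13*, the liver aspartate/glutamate carrier, at 982, and *Slc25a1*, the citrate carrier, at 909. *Slc25a25* came 12th on this scale, at 288 per kb. These means take in the Dex-injected mice. In water-PBS mice alone *Slc25a15* was at 725 per kb, below *Slc25a39* at 1240, *Slc25a1* at 913 and *Slc25a13* at 813. The 7 members under 10 counts were *Slc25a2*, *Slc25a18*, *Slc25a31*, *Slc25a35*, *Slc25a41*, *Slc25a43* and *Slc25a54*, of which *Slc25a41* and *Slc25a54* had 0 counts in every library. With totals of 9091152 to 12303527 counts per library, a count of 0 still allows a level of up to 3 counts, so these 2 were not detectable at this depth.

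**Figure D1:**
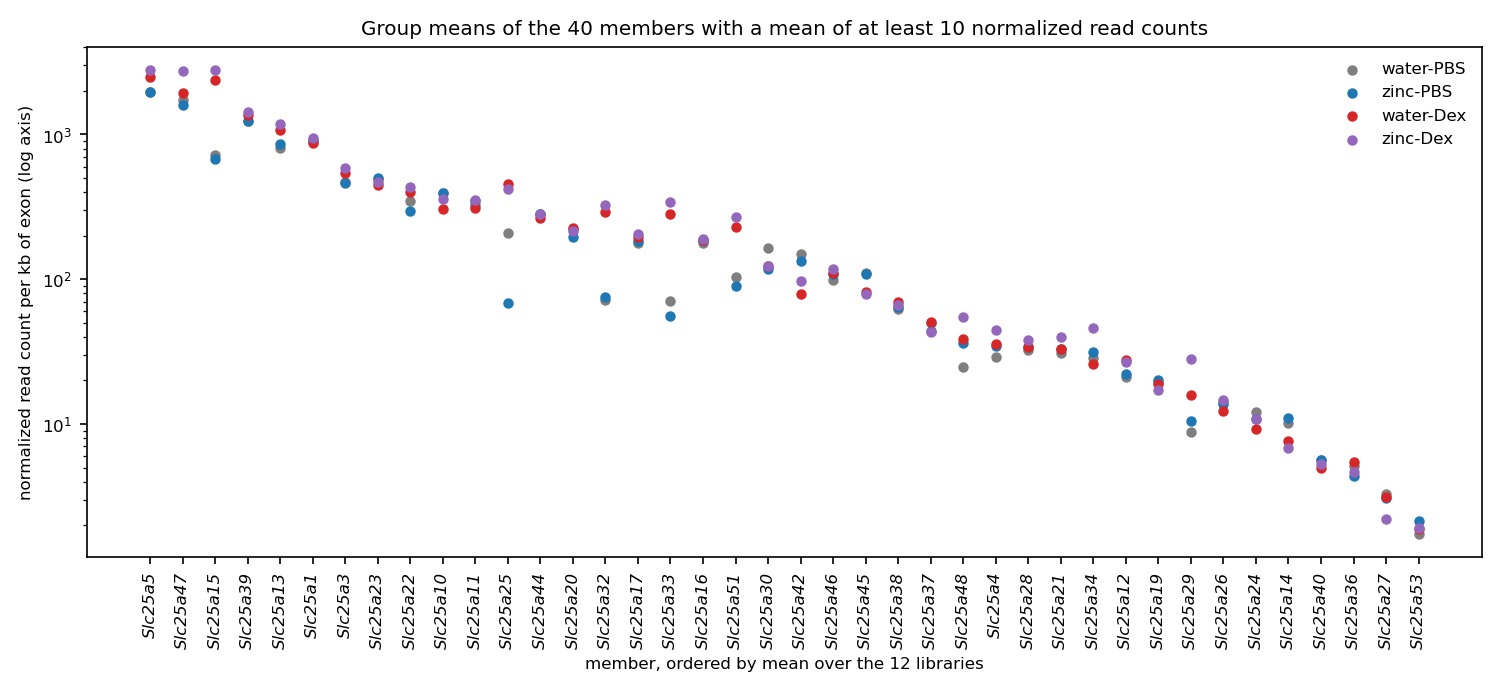
Normalized read count per kb of exon, on a log axis, for the 40 members with a mean of at least 10 normalized read counts, ordered by their mean over the 12 libraries; each point is the mean of 3 mice. The group means of most members lie close together. *Slc25a25*, *Slc25a15*, *Slc25a32*, *Slc25a33* and *Slc25a51* show the 2 Dex-injected groups above the 2 PBS-injected groups, and *Slc25a25* shows zinc-PBS below water-PBS. The Dex-injected groups are also the higher ones in other members, among them *Slc25a29*, *Slc25a48*, *Slc25a5* and *Slc25a13*.

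The ATP-Mg/phosphate carriers comprised *Slc25a25* and its paralogs *Slc25a23*, *Slc25a24* and *Slc25a41*. *Slc25a25* (ENSMUSG00000026819, GRCm38 chr2:32414487-32451445, minus strand) had 1217, 2167 and 1539 normalized read counts in the 3 water-PBS mice and 510.0, 595 and 522 in the 3 zinc-PBS mice. In the water-Dex mice it had 3045, 3970.3 and 3730.1, and in the zinc-Dex mice 2640.5, 3860.0 and 3355. The zinc-PBS mice were thus lowest, the water-PBS mice lay between, and the Dex-injected groups were highest and overlapped each other. Zinc lowered *Slc25a25* in PBS-injected mice by 1.60 on the log2 scale, and the 95% interval ran from -1.97 to -1.22 (DESeq2 adjusted p = 1.3e-13). With edgeR the difference was also -1.60, with a weaker adjusted p of 0.0023. In Dex-injected mice the zinc difference was -0.12 on the log2 scale, with an interval from -0.49 to 0.24 (DESeq2 adjusted p = 0.93).

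Dex raised *Slc25a25* from both starting levels. The gene was 2.18-fold higher in water-Dex than in water-PBS mice (log2 fold change 1.13, SE 0.188, DESeq2 adjusted p = 4.1e-08) and 6.05-fold higher in zinc-Dex than in zinc-PBS mice (log2 fold change 2.60, SE 0.190, DESeq2 adjusted p = 1.8e-40). Zinc-Dex mice were 1.0 above water-PBS mice on the log2 scale (95% interval 0.63 to 1.37, DESeq2 adjusted p = 1.5e-06). The test of the difference between the zinc effects with and without Dex, the interaction, gave a log2 value of 1.47 (95% interval 0.95 to 2.00, DESeq2 adjusted p = 0.00022). With edgeR the same interaction was 1.47 with an adjusted p of 0.18, so the call was lost there.

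No paralog was called in any comparison. *Slc25a23* (ENSMUSG00000046329) had 2596 ± 119 normalized counts in water-PBS, 2631 ± 66.8 in zinc-PBS, 2382 ± 236 in water-Dex and 2472 ± 223 in zinc-Dex mice (mean ± SD, n = 3 each), and its zinc difference in PBS-injected mice was 0.02 on the log2 scale (95% interval -0.16 to 0.20). *Slc25a24* (ENSMUSG00000040322) was scarce, at 41.4 ± 3.2, 37.1 ± 7.84, 31.6 ± 4.11 and 37.2 ± 7.36 in the same order, with a zinc difference of -0.15 and a wide interval (-0.68 to 0.38). *Slc25a41* was at 0 throughout. The exons of *Slc25a25* share 379 bases with *Naif1* on the opposite strand, and since the strand setting of the counting is not given, reads from that stretch cannot be assigned. *Naif1* itself averaged 46.4 normalized counts and had 48.2 in water-PBS, 38.9 in zinc-PBS, 48.2 in water-Dex and 50.3 in zinc-Dex mice. In all, 12 members share exon bases with a gene on the opposite strand.

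**Figure D2:**
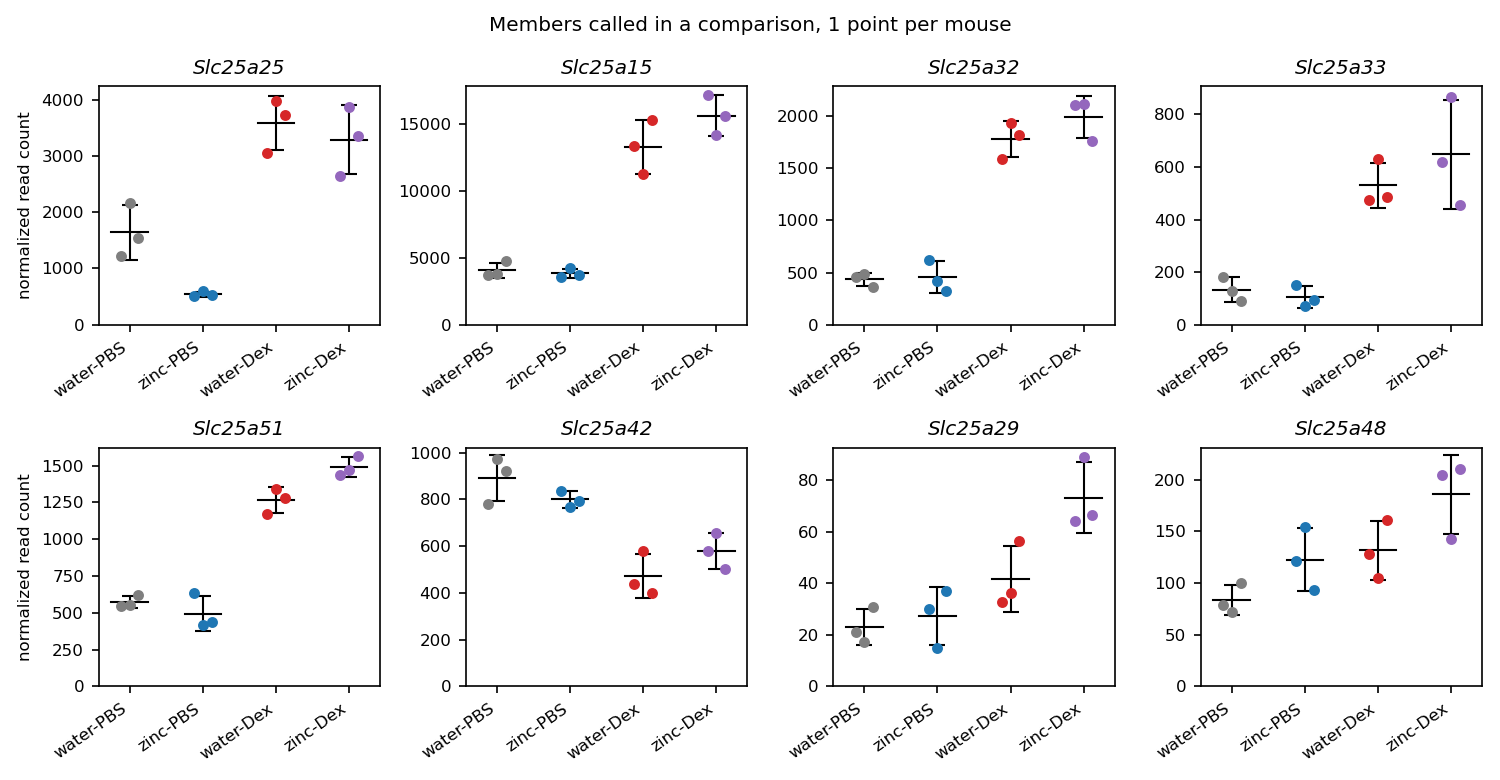
Normalized read counts of the 8 members called in at least 1 comparison, 1 point per mouse, with the group mean (wide line) and SD (error bars, n = 3), on linear axes that start at 0. *Slc25a25* is lowest in zinc-PBS mice, at 510.0 to 595, *Slc25a42* is lower in the Dex-injected groups, and *Slc25a15*, *Slc25a32*, *Slc25a33* and *Slc25a51* are higher in both Dex-injected groups than in any PBS-injected mouse.

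Zinc alone moved little else in the family. Of the 47 members, 39 were tested in zinc-PBS against water-PBS mice, which compares zinc water with plain water in mice that received no Dex. Of these 1 was called, *Slc25a25*. To be called, a gene needed a DESeq2 adjusted p under 0.05 together with a log2 fold change beyond 0.8 in either direction. Over all 11967 genes tested 0.142% were called, and 0.0585% were called lower. Among the other 39 members with a mean of at least 10 counts, the log2 differences ran from -0.49 to 0.56 with a median of 0.0024, 0 were called by DESeq2 or by edgeR, and 1 had an unadjusted p under 0.05. That member was *Slc25a48* (log2 fold change 0.56, unadjusted p = 0.018, DESeq2 adjusted p = 0.61), reported to carry choline.

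In zinc-Dex against water-Dex mice 40 members were tested and 0 were called by DESeq2 or by edgeR, against 0.473% of all genes tested. At an unadjusted p under 0.05 there were 6, *Slc25a34*, *Slc25a29*, *Slc25a10*, *Slc25a48*, *Slc25a42* and *Slc25a21*, named here after their values were seen, and all 6 were higher in zinc-Dex mice. The share of all genes with an unadjusted p under 0.05 was not counted, in this or any other comparison, so the 6 have no background beside them. The family's median log2 difference was 0.11, beside 0.0021 over all genes tested. *Slc25a34*, a carrier without a settled substrate, had 50.8, 109.5 and 46.5 normalized counts in water-Dex mice, against 116, 133 and 119 in zinc-Dex mice, so that water-Dex replicate 2 stood apart from the other water-Dex mice. Its log2 difference was 0.84 (DESeq2 adjusted p = 0.091). When each library was left out in turn, only the omission of water-Dex replicate 2 gave a call (log2 1.34, DESeq2 adjusted p = 3.2e-05). That mouse was the water-Dex mouse nearest the zinc-Dex mice, so leaving it out widens the difference by itself and adds no support.

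**Figure D3:**
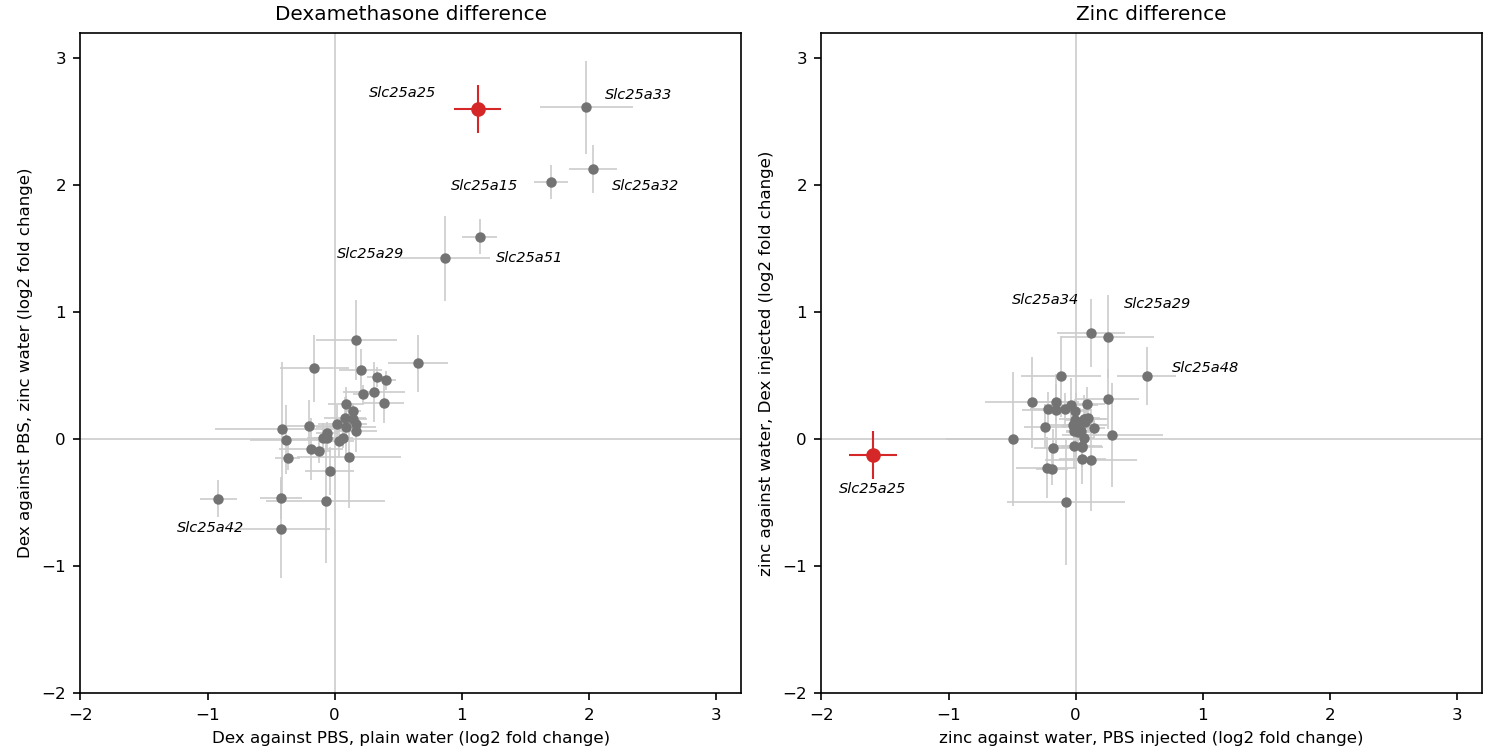
Log2 fold changes of the 40 members with a mean of at least 10 counts, with standard errors as bars and *Slc25a25* in red; left, Dex against PBS in plain-water mice (x) and in zinc-water mice (y), and right, zinc against water in PBS-injected (x) and Dex-injected mice (y). No library enters both axes of a panel. On the right, *Slc25a25* lies at -1.60 on the x axis while the other members lie between -0.49 and 0.56, and on the left it lies at 1.13 and 2.60.

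More members were called with Dex than with zinc alone, and the same held over all genes. Of all genes tested, 0.142% were called with zinc alone in PBS-injected mice. In plain-water mice 41 members were tested and 6 were called, 5 higher and 1 lower, or 14.6% of those tested. Of all genes tested 9.79% were called, 4.93% higher and 4.86% lower. In zinc-water mice 42 were tested and 6 were called, all higher, or 14.3%, beside 9.75% of all genes in either direction and 5.04% higher. *Slc25a15*, *Slc25a25*, *Slc25a32*, *Slc25a33* and *Slc25a51* were called in both, which is 83.3% of each list. These shares were not tested against the background. The family's median log2 differences were 0.09 and 0.12, beside -0.010 and -0.0094 over all genes tested. In zinc-Dex against water-PBS mice, 7 of 41 members were called, all higher, beside 11.0% of all genes in either direction and 5.47% higher.

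*Slc25a15* (ENSMUSG00000031482, GRCm38 chr8:22375551-22398597), the ornithine carrier, gained the most counts. It had 3714, 3780.4 and 4740.0 normalized counts in water-PBS, 3555, 4222 and 3744 in zinc-PBS, 13339, 11239 and 15315 in water-Dex mice, and 17171, 14162 and 15612 in zinc-Dex mice. Every Dex-injected mouse was above every PBS-injected mouse. Dex raised it 3.26-fold in plain-water mice (log2 fold change 1.71, SE 0.133, DESeq2 adjusted p = 1.8e-35) and 4.07-fold in zinc-water mice (log2 fold change 2.03, SE 0.133, DESeq2 adjusted p = 4.4e-50). Its interaction was 0.32 on the log2 scale (95% interval -0.05 to 0.69).

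A relative, *Slc25a29* (ENSMUSG00000021265, GRCm38 chr12:108825873-108835883), which imports arginine and lysine, was much scarcer. It had 21.0, 17.3 and 30.8 normalized counts in water-PBS, 29.8, 14.9 and 37.1 in zinc-PBS, 32.5, 36.2 and 56.4 in water-Dex mice, and 64.1, 88.9 and 66.3 in zinc-Dex mice. The zinc-Dex mice lay above all others and the other groups followed without clear gaps. Zinc-Dex mice were 1.42 above zinc-PBS mice on the log2 scale (SE 0.335, DESeq2 adjusted p = 0.00024) and 1.68 above water-PBS mice (DESeq2 adjusted p = 1.7e-05), while in plain-water mice the Dex difference was 0.87 (DESeq2 adjusted p = 0.063). The gene starts 162 bases from *Slc25a47*, which runs the opposite way. *Slc25a20*, the carnitine/acylcarnitine carrier of fatty acid oxidation, had 1078 ± 129, 955 ± 123, 1092 ± 193 and 1038 ± 139 counts in the 4 groups in the order of the values above, with a Dex difference of 0.02 in plain-water mice (95% interval -0.28 to 0.31).

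Among the 9 nucleotide and cofactor carriers in the table, 3 were called higher and 1 lower in plain-water mice after Dex, beside 4.93% of all genes tested called higher and 4.86% called lower. *Slc25a32* (ENSMUSG00000022299, GRCm38 chr15:39091231-39112716), which imports folate and FAD, had 454, 489.6 and 361 normalized counts in water-PBS, 622, 419.6 and 325 in zinc-PBS, 1593, 1937 and 1816 in water-Dex mice, and 2103, 2115 and 1763 in zinc-Dex mice. The PBS-injected groups overlapped, the Dex-injected groups overlapped, and no Dex-injected mouse came near a PBS-injected mouse. The rise was 2.03 on the log2 scale in plain-water mice (SE 0.190, DESeq2 adjusted p = 6.9e-25) and 2.13 in zinc-water mice (SE 0.189, DESeq2 adjusted p = 1.8e-27).

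*Slc25a33* (ENSMUSG00000028982, GRCm38 chr4:149744036-149774277), a carrier of pyrimidine nucleotides, had 182, 130.1 and 90.1 normalized counts in water-PBS, 151, 70.8 and 96.0 in zinc-PBS, 475, 629 and 486 in water-Dex mice, and 619, 868 and 457 in zinc-Dex mice. The spread within each group was wide, and still the PBS-injected and Dex-injected mice did not overlap. It rose by 1.98 in plain-water mice (SE 0.365, DESeq2 adjusted p = 9.2e-07) and by 2.61 in zinc-water mice (SE 0.365, DESeq2 adjusted p = 2.7e-11) on the log2 scale. *Slc25a51* (ENSMUSG00000045973, GRCm38 chr4:45395923-45408766), the mitochondrial NAD carrier, had 546, 551 and 623 counts in water-PBS, 631, 414 and 435 in zinc-PBS, 1173, 1343 and 1282 in water-Dex mice, and 1436, 1471 and 1563 in zinc-Dex mice. Here the zinc-Dex mice all lay above the water-Dex mice, but the zinc difference of 0.24 did not pass the test (95% interval -0.03 to 0.50, DESeq2 adjusted p = 0.59). The rise with Dex was 1.14 (SE 0.140, DESeq2 adjusted p = 1.2e-14) and 1.59 (SE 0.140, DESeq2 adjusted p = 3.8e-28) on the log2 scale.

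*Slc25a42* (ENSMUSG00000002346, GRCm38 chr8:70184340-70212305), which imports coenzyme A, went the other way. It had 779, 972 and 923 normalized counts in water-PBS, 838, 768 and 794 in zinc-PBS, 439, 579 and 401 in water-Dex mice, and 579, 655 and 502 in zinc-Dex mice. All PBS-injected mice were above all Dex-injected mice. It fell by 0.92 on the log2 scale in plain-water mice (SE 0.145, DESeq2 adjusted p = 6.7e-09), the only member called lower in any comparison with Dex. In zinc-water mice it fell by 0.47 (SE 0.144, DESeq2 adjusted p = 0.0086), which is inside the fold change limit. The other 5 carriers of this class, among them the peroxisomal carrier *Slc25a17*, were not called.

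Of the carriers of energy exchange and of aspartate and glutamate, 0 were called, beside 9.79% and 9.75% of all genes tested with Dex in plain-water and zinc-water mice. In plain-water mice 2 of the 3 tested carriers of energy exchange and 1 of the 3 tested carriers of aspartate and glutamate passed the adjusted p alone, all higher with Dex. *Slc25a5* (ENSMUSG00000016319), which exchanges ADP for ATP, had 3252 ± 185 normalized counts in water-PBS, 3238 ± 158 in zinc-PBS, 4107 ± 102 in water-Dex and 4553 ± 368 in zinc-Dex mice (n = 3 each). Its Dex difference was 0.34 in plain-water mice (DESeq2 adjusted p = 0.00026) and 0.49 in zinc-water mice (DESeq2 adjusted p = 1.6e-08) on the log2 scale. *Slc25a13* (ENSMUSG00000015112) had 3087 ± 240, 3256 ± 92.8, 4086 ± 53.6 and 4489 ± 271 in the same order, with log2 differences of 0.40 (DESeq2 adjusted p = 1.9e-06) and 0.46 (DESeq2 adjusted p = 2.4e-08). With the adjusted p alone, 11 members passed in plain-water mice, 9 higher and 2 lower, beside 22.0% of all genes tested (11.8% higher and 10.1% lower). In zinc-water mice 14 passed, 12 higher and 2 lower, beside 20.3% of all genes tested (11.1% higher and 9.16% lower).

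Among the di- and tricarboxylate carriers, *Slc25a1* (ENSMUSG00000003528) had 1976 ± 111, 1963 ± 15.1, 1896 ± 104 and 2031 ± 208 counts in the same order and was called in no comparison. *Slc25a10* (ENSMUSG00000025792), the dicarboxylate carrier, had 1365 ± 155 in water-PBS and 1057 ± 39.7 in water-Dex mice, and fell by 0.37 on the log2 scale (DESeq2 adjusted p = 0.0014). In zinc-water mice its difference was -0.14 (95% interval -0.33 to 0.05, DESeq2 adjusted p = 0.34). Of the 5 iron, glycine and glutathione carriers, 0 were called in either Dex comparison, beside 9.79% and 9.75% of all genes tested. In zinc-water mice 1 passed the adjusted p alone, beside 20.3% of all genes tested. This was *Slc25a39* (ENSMUSG00000018677), with 3418 ± 40.7, 3388 ± 22.9, 3776 ± 236 and 3957 ± 92.3 counts and a Dex difference of 0.22 in zinc-water mice (DESeq2 adjusted p = 0.0026).

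Smaller shifts showed where both treatments were set against neither. In zinc-Dex against water-PBS mice 17 members passed the adjusted p alone, 15 higher and 2 lower, beside 23.8% of all genes tested. Those within the fold change limit included *Slc25a3*, the mitochondrial phosphate carrier, with 2663, 2584 and 2534 normalized counts in water-PBS and 3509, 2987 and 3292 in zinc-Dex mice (log2 fold change 0.33, DESeq2 adjusted p = 0.00010). The groups did not overlap, and the phosphate carrier also rose with Dex in each water group, by 0.22 and 0.35. *Slc25a46*, an outer membrane relative that takes part in mitochondrial fission, had 529, 559.7 and 511 in water-PBS and 653, 649 and 621 in zinc-Dex mice (log2 fold change 0.26, DESeq2 adjusted p = 0.011). *Slc25a21*, the carrier of oxodicarboxylates, had 127, 157 and 169 in water-PBS and 201, 191 and 191 in zinc-Dex mice (log2 fold change 0.37, DESeq2 adjusted p = 0.039). In both genes all zinc-Dex mice were above all water-PBS mice. *Slc25a22*, a glutamate carrier, had 1744, 1308 and 2265 in zinc-PBS against 2367, 2951 and 2450.1 in zinc-Dex mice, a log2 difference of 0.55 (DESeq2 adjusted p = 0.0078), while its Dex difference in plain-water mice was 0.21 (95% interval -0.12 to 0.53). In zinc-Dex against water-PBS mice *Slc25a22* was not among the 17, with a log2 difference of 0.31 (DESeq2 adjusted p = 0.19). These 4 members were picked for mention once their values were known.

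The less characterised carriers varied more among mice. *Slc25a47* (ENSMUSG00000048856), second of the family per kb, had 6021, 5871 and 3581 normalized counts in water-PBS, 6264, 3248 and 4787 in zinc-PBS, 3722, 7270.5 and 6450.1 in water-Dex mice, and 8017, 9286 and 7268 in zinc-Dex mice. The first 3 groups overlapped, and the Dex difference in zinc-water mice was 0.78 on the log2 scale (95% interval 0.16 to 1.40, DESeq2 adjusted p = 0.062). *Slc25a48* (ENSMUSG00000021509, GRCm38 chr13:56438355-56474239) had 78.8, 71.9 and 99.9 counts in water-PBS, 121, 154 and 93.2 in zinc-PBS, 128, 105 and 161 in water-Dex mice, and 204, 142 and 210.5 in zinc-Dex mice. Neighbouring groups overlapped, and zinc-Dex mice were 1.16 above water-PBS mice on the log2 scale (SE 0.233, DESeq2 adjusted p = 9.5e-06). *Slc25a45* (ENSMUSG00000024818) had 305 ± 57.6, 302 ± 16.4, 227 ± 25.9 and 219 ± 41.8 counts, and its Dex difference in zinc-water mice was -0.46 (DESeq2 adjusted p = 0.030).

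**Figure D4:**
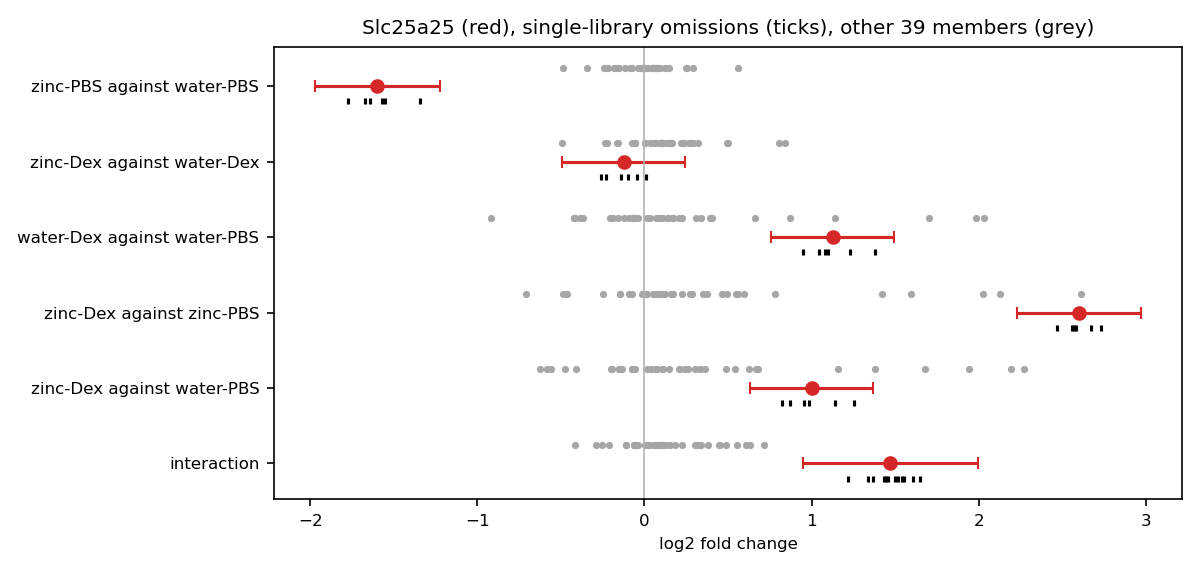
Log2 fold change of *Slc25a25* in each comparison (red, with its 95% interval), the same value with each library left out in turn (ticks), and the values of the other 39 members with a mean of at least 10 counts (grey). *Slc25a25* lies outside the range of the others for zinc in PBS-injected mice, at -1.60, and for the interaction, at 1.47, and inside it in the comparisons with Dex-injected mice.

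Ranked by size among the 40 members with a mean of at least 10 counts, *Slc25a25* came 1st in zinc-PBS against water-PBS, 5th in water-Dex against water-PBS, 24th in zinc-Dex against water-Dex, 2nd in zinc-Dex against zinc-PBS, 7th in zinc-Dex against water-PBS and 1st in the interaction. In the interaction 45 members were tested and 1 was called, higher, beside 0.0191% of all genes in either direction and 0.00382% higher. Of the other 39 members 0 were called by DESeq2 or by edgeR, and 2 had an unadjusted p under 0.05, *Slc25a51* (log2 0.45) and *Slc25a42* (log2 0.45), both chosen for mention after their values were seen.

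The family's share of all reads also differed between groups. Its 47 members together took 0.397% ± 0.0124 of the counts in water-PBS, 0.371% ± 0.00825 in zinc-PBS, 0.484% ± 0.0273 in water-Dex and 0.529% ± 0.00694 in zinc-Dex mice (mean ± SD, n = 3 each). All Dex-injected mice were above all PBS-injected mice, and zinc-PBS mice were below water-PBS mice. *Slc25a15* alone went from 0.0400% in water-PBS to 0.114% in water-Dex and 0.130% in zinc-Dex mice, and without it the family took 0.357%, 0.334%, 0.370% and 0.400% in the order of the groups above. *Slc25a25* made up 4.03% ± 1.07 of the family's counts in water-PBS, 1.42% ± 0.171 in zinc-PBS, 6.30% ± 0.569 in water-Dex and 5.15% ± 1.05 in zinc-Dex mice. These shares were not tested.

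**Figure D5:**
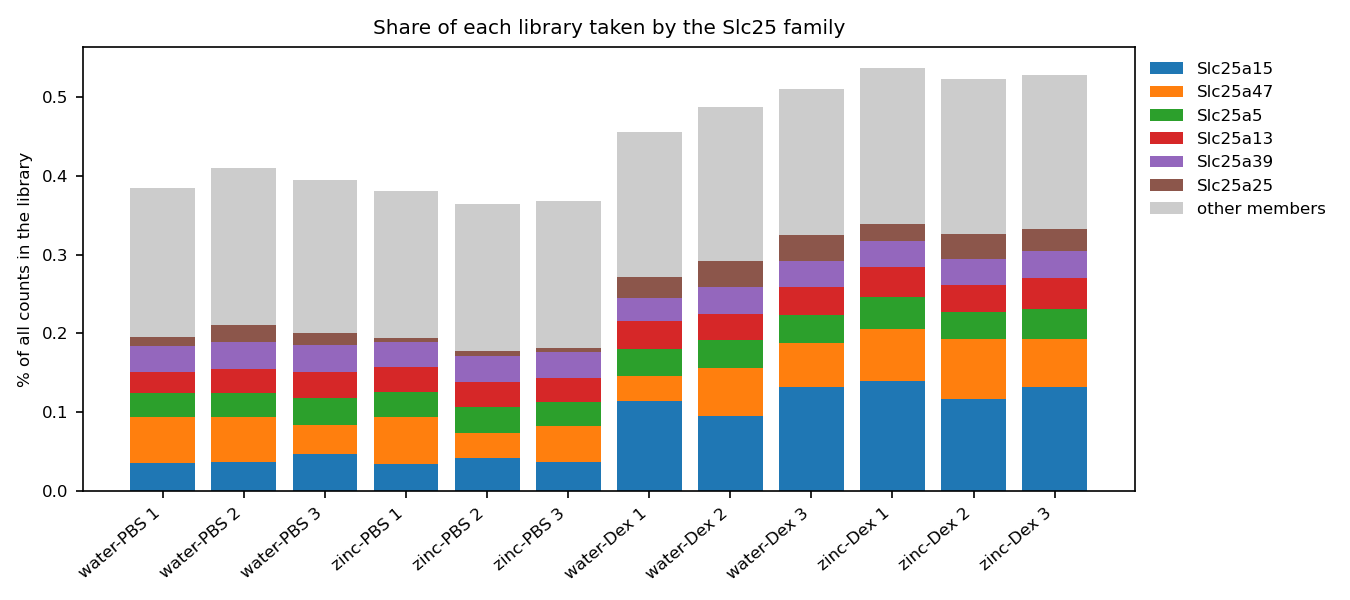
Percentage of all counts in each library taken by the Slc25 family, stacked by member, 1 bar per mouse, axis from 0. The 6 PBS-injected mice lie between 0.364% and 0.410%, the 6 Dex-injected mice between 0.455% and 0.537%, and *Slc25a15* (lowest segment) accounts for much of the gap.

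Genes whose levels followed *Slc25a25* most closely over the 12 libraries were looked for among 9569 genes that averaged 50 or more normalized counts, by Pearson's r of log2 normalized counts. The 5 with the highest r were *Fam162a* (r = 0.956), *Ces2a* (0.950), *Sesn2* (0.949), *8030462N17Rik* (0.940) and *Postn* (0.937), and no other member of the family was among them. *Sesn2*, a stress-inducible regulator of nutrient signalling, had 97.6 ± 10.9 normalized counts in water-PBS, 61.7 ± 10.3 in zinc-PBS, 161 ± 17.9 in water-Dex and 171 ± 9.61 in zinc-Dex mice. *Ces2a*, a liver carboxylesterase, had 2925 ± 10.1, 2260 ± 174, 4210 ± 338 and 4569 ± 162 in the same order, and its zinc difference in PBS-injected mice was -0.37 on the log2 scale (DESeq2 adjusted p = 0.0040). That of *Sesn2* was -0.66 and did not pass (DESeq2 adjusted p = 0.074). *Postn*, *8030462N17Rik* and *Fam162a*, at -0.33, -0.29 and -0.15, did not pass either (lowest DESeq2 adjusted p = 0.61). Within the 6 Dex-injected libraries alone r ranged from 0.273 for *Ces2a* to 0.803 for *Fam162a*. The 12 points share the 4 groups and their library depths, so these values describe likeness of pattern only.

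Genes related to the family were counted in lists of their own. Of the 5 carrier family genes under other symbols, *Ucp2*, an uncoupling protein homolog, was called higher with Dex in plain-water mice (log2 fold change 0.94, DESeq2 adjusted p = 1.3e-16) and in zinc-water mice (0.89, DESeq2 adjusted p = 1.8e-15). *Ucp1* and *Ucp3* had 1 count each over all libraries. Of 14 other inner membrane transporters, such as the pyruvate carriers *Mpc1* and *Mpc2*, 13 were tested and 0 were called with Dex in either water group. Over all genes tested 9.79% and 9.75% were called, and 22.0% and 20.3% passed the adjusted p alone. *Sfxn1*, which imports serine, passed the adjusted p alone in both (log2 fold change 0.51 and 0.69), and *Letm1*, a cation exchanger, in plain-water mice (0.24, DESeq2 adjusted p = 0.026). Of 13 enzymes upstream or downstream of a carrier, 2 (15.4%) were called higher in both Dex comparisons, beside 4.93% and 5.04% of all genes tested. They were *Got1*, the cytosolic aspartate aminotransferase of the shuttle that *Slc25a13* serves (log2 fold change 1.27 and 1.61), and *Alas1*, the first enzyme of heme synthesis (2.32 and 2.53). *Otc*, the mitochondrial enzyme that uses the ornithine brought in by *Slc25a15*, was at 6357 ± 182 counts in water-PBS and 5857 ± 146 in water-Dex mice (log2 fold change -0.12, DESeq2 adjusted p = 0.15).

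Genes known to respond to the treatments did so, with the metallothionein *Mt1* 3.87 higher on the log2 scale in zinc-PBS than in water-PBS mice and the glucocorticoid receptor target *Fkbp5* 3.12 higher in water-Dex than in water-PBS mice. *Mt1* was not particular to zinc, as it was also 4.44 higher in water-Dex than in water-PBS mice, with an interaction of -3.03. The summed hepatocyte markers were higher after Dex, at 1148190 to 1362920 normalized counts in PBS-injected and 1502670 to 1655210 in Dex-injected mice, with 0 of 5 markers called. Most of this sum was *Alb*, with means of 1059940 in water-PBS and 1305430 in water-Dex mice. With the adjusted p alone, 2 of the 5 hepatocyte markers passed in plain-water and 4 in zinc-water mice, all higher. Over all genes tested 22.0% and 20.3% passed. The summed endothelial markers were higher too, at 2341 to 2662 against 3219 to 3581, with 1 of 5 called, *Lyve1*. The rise was mostly that of *Lyve1*, from a mean of 160 in water-PBS to 927 in water-Dex mice (log2 fold change 2.53). In the same comparison *Stab1*, *Stab2*, *Pecam1* and *Clec4g* were at 0.26, 0.065, 0.069 and -0.17. Lymphocyte markers were at 23.6 to 47.8 against 7.92 to 21.7. Of the 4 tested in plain-water mice 2 were called lower, and of the 5 tested in zinc-water mice 0 were called. Beside all marker and inflammation lists here, 9.79% of all genes tested were called with Dex in plain-water and 9.75% in zinc-water mice. Erythroid markers were at 778 to 1561 against 1214 to 2136, with 0 of 5 called in plain-water mice and 1 called higher in zinc-water mice, *Hba-a1* (log2 fold change 0.95, DESeq2 adjusted p = 0.0022). Kupffer cell markers were at 3728 to 5338 against 4070 to 5065, and summed adipocyte, skeletal muscle and pancreas markers did not exceed 3.26, 18.1 and 140.1 counts in any library. In zinc-PBS replicate 1 the summed inflammation genes stood apart at 4515 counts, beside 198 to 427 in the other PBS-injected and 49.7 to 73.9 in the Dex-injected mice. Of 5 inflammation genes tested, 2 were called lower with Dex in plain-water and 3 in zinc-water mice. Without zinc-PBS replicate 1 the zinc difference of *Slc25a25* was -1.55 (DESeq2 adjusted p = 1.6e-09), its interaction was 1.43, and 7 members were called in zinc-Dex against zinc-PBS mice. The part of these shifts in the family's differences was not tested, and in whole liver a change in RNA per cell cannot be told apart from a change in the number of cells of a type.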

How the data were processed

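RNA from the livers of 12 mice (4 groups of 3) was sequenced single-end from stranded TruSeq libraries. Per the study's methods and the submitters' processing notes, the authors mapped reads to mm10 with HISAT2 2.0.4 and deposited raw read counts per Ensembl gene from featureCounts, without multimapping reads and without normalization. The level of any member with near-identical copies is therefore uncertain. Which annotation release was counted, and with what strand setting, is not given in the sources used here. All 12 columns of counts were used, with groups taken from the labels. Totals were 9091152 to 12303527 counts per library, 26191 of 54838 genes had at least 1 count, and 3 counts in a library were treated as the floor, which covers counting error only.

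Symbols, coordinates and exon lengths came from GENCODE M21 (GRCm38), and promoter windows from RefSeq. Differential expression was tested with DESeq2 1.42.0 (R 4.3.3) over all genes, in a single model of all 12 libraries with group as the factor, Wald tests, unshrunken log2 fold changes and Benjamini-Hochberg adjustment. Calls needed an adjusted p under 0.05 together with a log2 fold change beyond 0.8 in either direction. With 3 mice against 3, an exact permutation test cannot go below 0.1, so none was used. The code was tested on simulated data.

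The members and gene lists were chosen with earlier results of these data known. Named with values were the ATP-Mg/phosphate carriers, every member called, the 6 highest per kb, the members with the largest changes at an adjusted p under 0.05 (up to 2 in each direction per comparison) and the 5 genes most like *Slc25a25*; others are marked where they appear or illustrate a class. Alternatives were edgeR 4.0.16, TMM factors, a filter of at least 10 counts in at least 3 libraries, a replicate block, leaving out each library, only the libraries compared, no fold change limit, and omission of the independent filter or of the Cook's distance filter.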

Additional observations from a re-analysis of the deposited data

Results flagged for a closer look

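The zinc difference of *Slc25a25* differed between Dex-injected and PBS-injected mice, by a test of the difference itself. The interaction was 1.47 on the log2 scale (SE 0.267, DESeq2 adjusted p = 0.00022), from a zinc difference of -1.60 in PBS-injected and -0.12 in Dex-injected mice. With each library left out in turn it lay between 1.22 and 1.65, and with edgeR its adjusted p was 0.18.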

How the results depend on the processing

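The counts of members called and the *Slc25a25* values kept their direction and their side of the threshold under most alternatives. With no fold change limit the members called were 11 in water-Dex against water-PBS, 14 in zinc-Dex against zinc-PBS and 17 in zinc-Dex against water-PBS. Under edgeR the interaction of *Slc25a25* was 1.47 with an adjusted p of 0.18, which left 0 members called there; the cause was not tested. Leaving out single libraries gave 6 to 8, 6 to 7 and 7 to 8 members called in these Dex comparisons, 1 in zinc-PBS against water-PBS and in the interaction, and 0 to 1 in zinc-Dex against water-Dex, where *Slc25a34* was called without water-Dex replicate 2. The log2 fold change of *Slc25a25* then ranged from -1.77 to -1.34 for zinc-PBS against water-PBS, from 0.95 to 1.38 for water-Dex against water-PBS, from 2.47 to 2.73 for zinc-Dex against zinc-PBS, from 0.82 to 1.25 for zinc-Dex against water-PBS, and from -0.26 to 0.011 for zinc-Dex against water-Dex, where the sign turned without zinc-Dex replicate 1. For the other members that were called, or had the largest changes past the adjusted p, all 273 values kept their direction and their side of the threshold. Among the rest, *Slc25a48* (log2 0.81) and *Slc25a29* (1.13) were also called in water-Dex against water-PBS without water-PBS replicate 3, *Slc25a47* (1.03) in zinc-Dex against zinc-PBS without zinc-PBS replicate 1, and *Slc25a4* (0.84) in zinc-Dex against water-PBS without water-PBS replicate 1. The adjusted p alone was less steady for *Slc25a42* and *Slc25a45* in zinc-Dex against zinc-PBS, rising to 0.083 and 0.19 at most. Over all genes, edgeR called 9 in place of 17 in zinc-PBS against water-PBS, 21 in place of 59 in zinc-Dex against water-Dex and 3 in place of 5 in the interaction.

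Same-numbered libraries of different groups correlated between -0.204 and 0.191 in their deviations from the group means, so the replicate numbers were not taken as pairs. With the replicate block 1 member, *Slc25a34* (log2 0.89, DESeq2 adjusted p = 0.049), was called in zinc-Dex against water-Dex, the interaction of *Slc25a25* was 1.43, 8 genes in place of 5 were called in the interaction over all genes, and no other count of members changed.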

Other observations

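*Slc25a30*, a carrier related to the uncoupling proteins and chosen for mention after its values were seen, differed widely among mice of the same group. It had 986, 942 and 339 normalized read counts in water-PBS mice, 385, 939 and 292 in zinc-PBS mice, 486, 768 and 449 in water-Dex mice and 430.1, 651 and 624 in zinc-Dex mice. The ranges of all 4 groups overlapped, and its standard error of 0.53 on the log2 scale in zinc-PBS against water-PBS was beyond that of any other member with a mean of at least 100 counts.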
